A study of Mus musculus with 7 samples.

Results

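Natural killer (NK) cells were taken as the cells to which the authors' deposited annotation gives that name, 909 of the 28644 annotated cells of 7 mouse brain tumour libraries. For comparison, the 4 annotations that name CD8 T cells were joined (8602 cells), and the 1 annotation that names gamma-delta T cells was used as deposited (219 cells). All 7 mice carried CT-2A, a mouse glioma line, engrafted in the brain at 8 to 12 weeks of age. The 4 mice labelled Siglece KO were Sall1CreERT2 x Siglecefl/fl and the 3 labelled WT were Siglecefl/fl without the driver. Both groups therefore carried the floxed Siglece allele, and both received tamoxifen, 2.5 mg per injection, from day 7 after engraftment, daily until day 21 and on alternate days from then on. Sall1, whose promoter drives the inducible Cre, is a microglial transcription factor within brain immune cells, so the design compares NK cells beside microglia that lost or kept an inhibitory sialic acid receptor. Each brain hemisphere with a tumour was made into a cell suspension and stored frozen. After thawing, viable cells carrying CD45, CD11b or both were collected by sorting, and each mouse gave 1 library with a 10x Genomics 5′ kit. The animals are called KO1 to KO4 and WT1 to WT3 after the numbers in the labels, and the labels describe the driver allele as B6;129 and the floxed allele as B6.129P2, so the groups may also differ at other loci.

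NK cells are innate lymphocytes that kill without a rearranged antigen receptor. They read activating receptors (NKp46 encoded by Ncr1, NKG2D by Klrk1, NK1.1 by Klrb1c), which signal through the adaptors encoded by Tyrobp and Fcer1g, against inhibitory receptors for MHC class I such as the Ly49 (Klra) family and CD94/NKG2A (Klrd1 with Klrc1). Killing proceeds by perforin (Prf1), which opens the target membrane, and granzymes, the serine proteases that enter through it. In tumours NK cells also release interferon gamma (Ifng) and chemokines such as XCL1 and CCL5.

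Per mouse the annotation held 110, 259, 109 and 235 NK cells in KO1 to KO4 and 51, 53 and 92 in WT1 to WT3. Their UMIs (unique molecular identifiers, each standing for 1 captured transcript) summed to between 270957 in WT1 and 1491563 in KO4, and the median NK cell held 5126. The depth was uneven, from a median of 3823 UMIs per NK cell in WT1 to 8605.5 in KO1. WT1 also stood apart in its RNA: a median of 14.6% of its NK UMIs came from ribosomal protein genes, against 21.6% to 24.5% in the other 6 libraries. By the sex-linked genes, KO1, KO2 and WT3 were female and the rest male, so each group held both sexes. A total of 460 cell barcodes occurred in more than 1 library, none of them shared by NK cells of different libraries. The barcodes of 42 NK cells were among them, each shared with cells of other classes in another library. The 8 UMIs of Siglece in all NK cells (1.33 CPM, UMIs per 1000000 UMIs of the class) were split as 1, 3, 1 and 3 in KO1 to KO4 and 0 in each WT mouse, where a count of 0 over the group allows up to 2.43 CPM (3 UMIs). The deleted gene was thus at the level of single molecules in NK cells. In the microglia of the same libraries Siglece had 2, 1, 0 and 0 UMIs in KO1 to KO4 and 20, 19 and 7 in WT1 to WT3. Scaled to depth this was 10.7 and 19.6 CPM in KO1 and KO2 and 36.1, 45.9 and 18.6 CPM in WT1 to WT3, so that KO2 lay above WT3. The KO microglia were shallow, and the counts of 0 allow up to 81.3 CPM in KO3 and 16.7 CPM in KO4. The level over all microglia of a genotype was 34.2 CPM for WT and 6.60 CPM for KO.

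The name was checked against the markers Ncr1, Klrb1c, Gzma and Prf1. To compare cells of different depth, each cell was thinned to 2000 UMIs, which left 849 of the 909 NK cells. Ncr1 was then detected in 49.7% of NK cells, 0.764% of CD8 T cells, 0 of 186 gamma-delta T cells, which allows up to 1.61%, and 0.262% of B cells, which should lack it. Klrb1c was detected in 51.4%, 3.21%, none and 0.131% of the same classes, and Gzma in 62.3%, 7.46%, 1.61% and 0.656%. Prf1, which cytotoxic T cells also use, was detected in 39.8% of NK cells and 19.4% of CD8 T cells, against 3.15% of B cells. Without thinning, Ncr1 was detected in 72.4% of NK cells and 1.47% of CD8 T cells, at median depths of 5126 and 5163 UMIs. The T cell gene Cd3e was detected in 10.2% of thinned NK cells, with 2.08% in the lowest mouse and 30.0% in the highest, against 90.8% of CD8 T cells and 3.15% of B cells. The macrophage gene Lyz2 was detected in 26.5% of NK cells, 25.8% of CD8 T cells and 24.8% of B cells. All 4 markers were thus detected most often in the annotated cells, as the name asks, and Cd3e was above the B cell level.

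Markers of other cell types differed in how far they were present in the NK sums. Summed over a list of 8 neutrophil genes the level was 0.782 to 5.04 CPM in the KO mice and 0 to 7.53 CPM in the WT mice, with Retnlg, Ly6g and Camp at 0. Sall1, Pax5, Pdgfrb and Sox2, which mark microglia, B cells and tumour or stromal cells, were also at 0. The other markers of those types were not: summed over its list, each type had 49.2 to 87.2 CPM in KO and 90.4 to 140.3 CPM in WT mice (microglia), 149.5 to 210.3 and 88.6 to 147.3 CPM (B cells), 133 to 227 and 238 to 273 CPM (dendritic cells), and 68.7 to 77.4 and 77.0 to 110.8 CPM (tumour and stromal cells). T cell markers summed to 1159 to 1831 CPM in KO and 1455 to 2166 CPM in WT mice, and gamma-delta T cell markers to 116.5 to 178 and 203 to 231 CPM. The microglial, dendritic, B cell and gamma-delta sums did not overlap between the genotypes, with the B cell sum higher and the other 3 lower in KO. These sums do not measure other cell types alone. The dendritic list includes the interferon-induced Bst2, and the gamma-delta list includes Trdv4, which was higher in NK cells than in CD8 T cells (both given below). Of the B cell list 1 gene was compared with gamma-delta T cells, and it was over 2-fold higher in NK cells in every mouse compared. The part of these cell types in the genotype comparisons given later was not tested. Monocyte and macrophage genes summed to 696.5 to 1751 CPM in the KO mice and 1375 to 2034 CPM in the WT mice, over a list that includes Ly6c2 and Ccr2, which lymphocytes also express.

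Upstream sequences of 3 genes are shown because Ncr1, Gzmc and Gzmd lead the differences between NK cells and CD8 T cells given below. Gzmc and Gzmd also have like upstream sequences and lie in the same granzyme cluster, with Gzmf and Gzmg between them. Each is the 250 bases before the RefSeq gene start in GRCm38.p6, written 5′ to 3′ on the gene's strand, with the motif TGTGGT or its reverse complement ACCACA in capitals. TGTGGT is the core bound by RUNX factors, which are known regulators of NK and T cell genes.
Ncr1, chr7:4337465-4337714, plus strand: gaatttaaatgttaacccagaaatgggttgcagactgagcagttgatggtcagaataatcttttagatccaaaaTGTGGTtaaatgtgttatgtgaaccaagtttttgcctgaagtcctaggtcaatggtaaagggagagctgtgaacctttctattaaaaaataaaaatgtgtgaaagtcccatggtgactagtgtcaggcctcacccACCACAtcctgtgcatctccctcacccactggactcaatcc
Gzmc, chr14:56234658-56234907, minus strand: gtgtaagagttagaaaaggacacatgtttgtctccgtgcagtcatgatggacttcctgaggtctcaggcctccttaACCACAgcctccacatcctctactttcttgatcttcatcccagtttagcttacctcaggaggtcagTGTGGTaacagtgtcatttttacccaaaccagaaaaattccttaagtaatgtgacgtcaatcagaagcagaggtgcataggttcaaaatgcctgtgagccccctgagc
Gzmd, chr14:56132594-56132843, minus strand: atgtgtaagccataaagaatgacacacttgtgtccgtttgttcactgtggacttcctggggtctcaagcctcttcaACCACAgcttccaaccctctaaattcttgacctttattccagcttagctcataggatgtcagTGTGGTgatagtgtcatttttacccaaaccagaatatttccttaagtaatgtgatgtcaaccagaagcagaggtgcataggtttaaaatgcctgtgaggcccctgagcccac
In the Ncr1 sequence the motif lay 176 to 171 and 41 to 36 bases before the start. In both granzyme sequences ACCACA lay at 174 to 169 bases, and TGTGGT at 108 to 103 bases in Gzmc and 112 to 107 in Gzmd. Aligned to each other, the Gzmc and Gzmd sequences were identical at 206 of 256 positions (80.5%), with 12 gap positions. On both strands together the motif occurred in 250-base upstream sequences of 8 of the 31 genes with a sequence among those higher in NK cells than in both T cell classes (25.8%). The 8 were Gzmc, Ncr1, Gzmd, Klrb1c, Klrb1a, Spp1, Xcl1 and Klrc2. It occurred in 5 of 49 genes lower in NK cells than in CD8 T cells (10.2%), in 344 of 3253 genes compared with both classes (10.6%) and in 3832 of all 27025 upstream sequences (14.2%). The motif was chosen after the gene values had been seen, no test was made, and a match is a description of letters, not of binding.

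Genes of NK cells were compared with those of the T cells within each mouse, as the difference in log2(CPM + 10) between the summed UMIs of the classes, with CPM scaled by edgeR's TMM (trimmed mean of M values) factors. A gene was called higher or lower when the difference was over 2-fold in every mouse. The annotation was made from the same counts, so these differences describe the classes and carry no test. Against CD8 T cells, 63 of 9029 genes were higher (0.698%) and 67 were lower (0.742%) in all 7 mice. Against gamma-delta T cells only KO1, WT1, WT2 and WT3 had at least 20 cells of that class, and 141 of 4186 genes were higher (3.37%) and 197 lower (4.71%) in those 4 mice. Genes higher against both numbered 39, which is 61.9% of the first set and 27.7% of the second. Genes lower against both numbered 21, which is 31.3% and 10.7%. The gamma-delta cells of WT3 matched their name in part: these 29 cells held no UMI of the delta chain genes Trdc or Trdv4 among 73328 UMIs, which allows up to 40.9 CPM (3 UMIs), while they held 7 of the gamma chain gene Trgc1, 50 of Cd3e and 127 of Il17a. The gamma-delta cells of KO1, WT1 and WT2 held 25, 167 and 40 UMIs of Trdc and 162, 669 and 167 of Trdv4. Their totals were 92282, 317602 and 129118 UMIs. Without WT3 the counts against gamma-delta T cells were 189 higher and 234 lower in 3 mice. Levels and folds against gamma-delta T cells below include WT3. Without it, a check chosen after seeing the data, the lower bounds of the folds given for Ncr1, Klra4, Klra7, Car2 and Cpm were 61.1, 33.4, 66.1, 64.0 and 106.

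**Figure D1:**
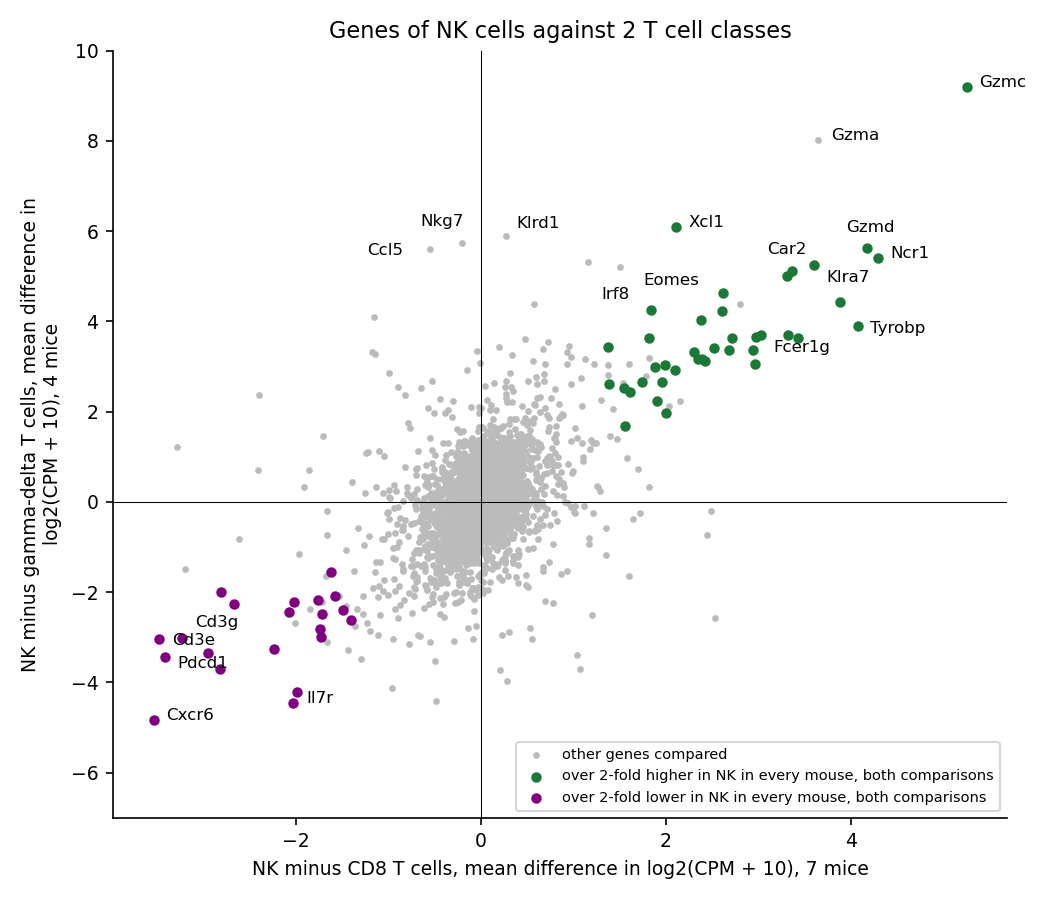
Mean difference between NK cells and CD8 T cells (horizontal axis, 7 mice) against that between NK cells and gamma-delta T cells (vertical axis, 4 mice), both in log2(CPM + 10), 1 point per gene compared in both. The 39 genes over 2-fold higher in every mouse of both comparisons (green) are led by Gzmc at 5.25 and 9.19, while Klrd1, Nkg7 and Ccl5 lie near 0 on the horizontal axis and above 5 on the vertical one.

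Activating receptors and their adaptors set NK cells apart from both classes. Of all genes compared, 0.698% were higher than in CD8 T cells and 3.37% higher than in gamma-delta T cells. Of 25 genes of that list compared with CD8 T cells, 11 were higher and 1 was lower in every mouse (median difference 1.26, against -0.02 over all genes compared), and of 22 compared with gamma-delta T cells 15 were higher and 1 lower (median 2.94, against 0.05). Ncr1 stood at 387 ± 64.2 CPM in NK cells and 12.4 ± 12.1 CPM in CD8 T cells (SD, n = 7), a mean log2 difference of 4.29 ± 0.70. In gamma-delta T cells Ncr1 had 0 UMIs of 612330, so that its level in NK cells of the same 4 mice was at least 66.8-fold higher, with a floor of 3 UMIs over the class. Tyrobp, the adaptor DAP12, was at 1849 ± 108 CPM in NK cells and 109 ± 43.2 CPM in CD8 T cells, and Fcer1g, the Fc receptor gamma chain, at 2034 ± 207 and 259 ± 94.6 CPM. Plain NK levels of Tyrobp ran from 1721 CPM in WT2 to 2036 in KO4 and those of Fcer1g from 1769 in KO3 to 2234 in WT1. Klrk1 was at 468 ± 77.8 CPM against 260.3 ± 68.2 in CD8 T cells (mean log2 difference 0.85 ± 0.30) and was not over 2-fold higher in every mouse.

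Ncr1 lies on chromosome 7, while the Klr receptor genes lie together in the genome. On chromosome 6 of GRCm38, the interval from 128609227 to 131247362 that holds the Klr genes of the NK gene complex (Klrg1 aside) contained 0.332% of the genes compared with CD8 T cells, 30 genes, and 14 of these were higher in NK cells in every mouse, 22.2% of all such genes. The 14 included Klra4, Klra7 and Klra8 of the Ly49 family and Klrb1a, Klrb1b, Klrb1c and Klrb1f of the NKR-P1 family, and near-identical Klra copies may share reads. Of the 30, 1 was lower, Klrh1 (129766568 to 129784270, minus strand), a gene of the same lectin-like family. It was at 3.00 ± 4.78 CPM in NK cells and 110 ± 58.3 CPM in CD8 T cells, and the lowest CD8 value, 59.0 CPM in WT1, lay above the highest NK value, 13.4 CPM in WT2. Against gamma-delta T cells 17 of 20 genes in the interval were higher and 1, the activation antigen Cd69, was lower. Of all genes compared with that class, 3.37% were higher and 4.71% lower. Klra4 (chromosome 6, 130043731 to 130067271, minus strand), an activating Ly49, was at 189 ± 92.2 CPM in NK cells and 2.65 ± 2.96 in CD8 T cells. Klra7 (130218605 to 130233322, minus strand), an inhibitory one, was at 335 ± 64.7 and 22.4 ± 17.7 CPM. Both had 0 UMIs in gamma-delta T cells, so Klra4 was at least 35.7-fold and Klra7 at least 67.5-fold higher in NK cells.

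Genes listed as inhibitory receptors differed from CD8 T cells in both directions. Of 20 compared with CD8 T cells, 4 were higher (Klra3, Klra7, Klra9 and Klri2) and 3 were lower, with a median of 0.24. Of all genes compared, 0.698% were higher and 0.742% lower. Klri2 was counted with this list, though it is not itself an established inhibitory receptor. The 3 that were lower are checkpoint receptors of chronically stimulated T cells: Pdcd1, which encodes PD-1, at 51.4 ± 47.6 CPM against 603 ± 248, Lag3 at 50.3 ± 18.5 against 294 ± 93.5, and Havcr2, which encodes TIM-3, at 14.4 ± 12.8 against 97.3 ± 46.7. Tigit was at 259 ± 44.5 CPM in NK cells and 385 ± 104 in CD8 T cells, and Klrd1 at 637 ± 67.2 and 533 ± 110.2, without a 2-fold difference in every mouse. Klrc1, the inhibitory partner of Klrd1, was at 263 ± 55.1 CPM in NK cells and 535 ± 107 in CD8 T cells. Against gamma-delta T cells 10 of 13 were higher and 2, Pdcd1 and Ctla4, were lower, where 3.37% and 4.71% of all genes were.

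Of 14 cytotoxic genes compared with gamma-delta T cells, 10 were higher and none lower in NK cells (median 2.58), where 3.37% of all genes were higher. Of 17 compared with CD8 T cells, 3 were higher and 1 lower (median 0.26), where 0.698% of all genes were higher. The difference between these 2 comparisons was not tested. The 3 were Gzmc and the granzyme inhibitors Serpinb9 (419 ± 89.7 against 141 ± 46.6 CPM) and Serpinb6b (314 ± 81.1 against 117 ± 43.3 CPM), which protect the killer from its own proteases. The 1 lower was Gzmk, at 19.0 ± 8.12 CPM against 184 ± 70.7 in CD8 T cells. The granzyme gene Gzmd, which this list does not hold, was also higher than in CD8 T cells in every mouse. Gzma and Prf1, used here to check the name of the class, were not over 2-fold higher than in CD8 T cells in every mouse: the Gzma differences ran from 0.99 to 6.71 and those of Prf1 from 0.91 to 1.97. Nkg7, a granule protein, was at 1787 ± 271 CPM in NK cells and 2072 ± 356 in CD8 T cells, against 33.0 ± 24.7 in gamma-delta T cells.

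On the log2(CPM + 10) scale, Gzmc gave the largest mean difference from each class among genes with at least 50 CPM. With a pseudocount of 1 Gzmd (5.92), Klra4 (5.88) and Klra8 (5.65) stood above Gzmc (5.55) against CD8 T cells. Its level was 4959 ± 2970.2 CPM in NK cells and 203 ± 248 in CD8 T cells (mean log2 difference 5.25 ± 0.98), and 7536 ± 3086 against 2.53 ± 5.05 CPM in NK and gamma-delta T cells of 4 mice (9.19 ± 0.70). Gzmc (chromosome 14 of GRCm38, 56231441 to 56234656, minus strand) lies in the granzyme cluster between 56117626 and 56262260 that runs from Gzme to Gzmb. Of 5 genes of that interval compared with CD8 T cells Gzmc and Gzmd were higher, where 0.698% of all genes were. Of 4 compared with gamma-delta T cells Gzmb, Gzmc, Gzmd and Gzme were all higher, where 3.37% of all genes were. Gzmd to Gzmg are closely related genes. Of the NK UMIs of Gzmd 51.2% came from whole-number values (within 1e-06) and of those of Gzmg 14.9%, so the counting could split reads between copies and their separate levels are uncertain.

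Transcription factors differed for a few members. Of 27 transcription factors compared with CD8 T cells 2 were higher and 2 lower (median 0.01), where 0.698% of all genes were higher and 0.742% lower. Eomes, which maintains mature NK cells, was at 230.0 ± 49.9 CPM against 31.4 ± 17.3, and Irf8 at 745 ± 288 against 197 ± 65.7. Tox, an exhaustion-linked factor in T cells, was lower, at 25.2 ± 12.6 CPM against 139 ± 92.5. Tbx21, the partner of Eomes, was at 193 ± 56.3 CPM against 147 ± 26.2 and differed from gamma-delta T cells only (12.6 ± 4.63 CPM there, with 213 ± 83.0 in NK cells of the same mice).

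Among genes of tissue residency and of the related group 1 innate lymphoid cells (ILC1), more were lower than higher in NK cells. Of 22 compared with CD8 T cells 1, Xcl1, was higher and 3 were lower (median -0.46), and of 19 compared with gamma-delta T cells 2 were higher and 7 lower (median -0.56). Of all genes compared, 0.742% and 4.71% were lower, and 0.698% and 3.37% were higher. Cxcr6, a residency receptor, was at 20.6 ± 20.8 CPM in NK cells, 314 ± 86.9 in CD8 T cells and 919 ± 146 in gamma-delta T cells. Il7r, the interleukin-7 receptor, was at 33.4 ± 13.8 CPM against 162 ± 29.7 in CD8 T cells and 1214 ± 468 in gamma-delta T cells. Itga1, the ILC1 integrin CD49a, was at 90.3 ± 24.2 CPM in NK cells (plain CPM, n = 7) and was detected in 11.8% of thinned NK cells, 13.5% of CD8 T cells and 0.538% of gamma-delta T cells. Itga2, the NK integrin CD49b, was at 23.3 ± 17.4 CPM in NK cells.

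Of 13 listed cytokines and chemokines compared with CD8 T cells, 1 was higher and 1 lower in NK cells (median -0.55). Of all genes, 0.698% were higher and 0.742% lower. Of 10 compared with gamma-delta T cells, 3 were higher and 2 lower (median 1.07), where 3.37% and 4.71% of all genes were. Among secreted factors, NK cells were marked by Xcl1, the chemokine of cross-presenting dendritic cells. Xcl1 was at 942 ± 210.4 CPM in NK cells and 226 ± 97.2 in CD8 T cells, and at 982 ± 287 against 7.36 ± 14.7 in gamma-delta T cells, where WT3 alone held any. Spp1 (osteopontin) was at 467 ± 496 CPM against 67.2 ± 71.4 in CD8 T cells, and Vegfa at 91.9 ± 18.2 against 15.6 ± 4.78. Ifng and Ccl5 did not separate NK from CD8 T cells: Ifng was at 224 ± 131 CPM against 451 ± 116 and Ccl5 at 3043 ± 1729 against 4114 ± 1153. Against gamma-delta T cells both were higher in NK cells (Ifng 264 ± 158 against 6.57 ± 13.1 CPM, Ccl5 3851 ± 2338 against 102 ± 84.8 CPM). The defining cytokine of the gamma-delta class, Il17a, was at 1646 ± 267 CPM there and 14.8 ± 28.9 in NK cells (0.306 ± 0.530 without WT3). Car2 (carbonic anhydrase 2), outside all lists, was at 300.5 ± 65.2 CPM in NK cells and 24.6 ± 24.4 in CD8 T cells, and at least 70.2-fold higher than in gamma-delta T cells. Cpm, a membrane carboxypeptidase, went the other way, at least 141-fold higher in gamma-delta T cells than in NK cells, where it had 0 of 2513103 UMIs.

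T cell genes were the lower side of the comparison. Of all genes compared, 0.742% were lower than in CD8 T cells, and 3.37% were higher than in gamma-delta T cells. Of 18 T cell markers compared with CD8 T cells 12 were lower and none higher (median -2.43): Cd8b1 was at 17.3 ± 12.8 CPM against 879 ± 238, Cd8a at 28.3 ± 19.3 against 837 ± 240.2 and Cd3e at 114 ± 76.4 against 1230.4 ± 246. Proliferation genes were lower for 5 of 26 against CD8 T cells (median -0.94), a class that includes cells the authors annotated as proliferating. Against gamma-delta T cells 1 of 14 was higher and none lower (median 0.84). Of 31 interferon response genes 1, Ifi27l2a, was lower (94.4 ± 54.4 CPM against 848 ± 222, median of the list -0.39). A gene segment ran against the pattern: Trdv4, a delta chain variable gene (chromosome 14, 54074905 to 54075515), was at 64.3 ± 13.2 CPM in NK cells and 2.92 ± 2.77 in CD8 T cells.

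**Figure D2:**
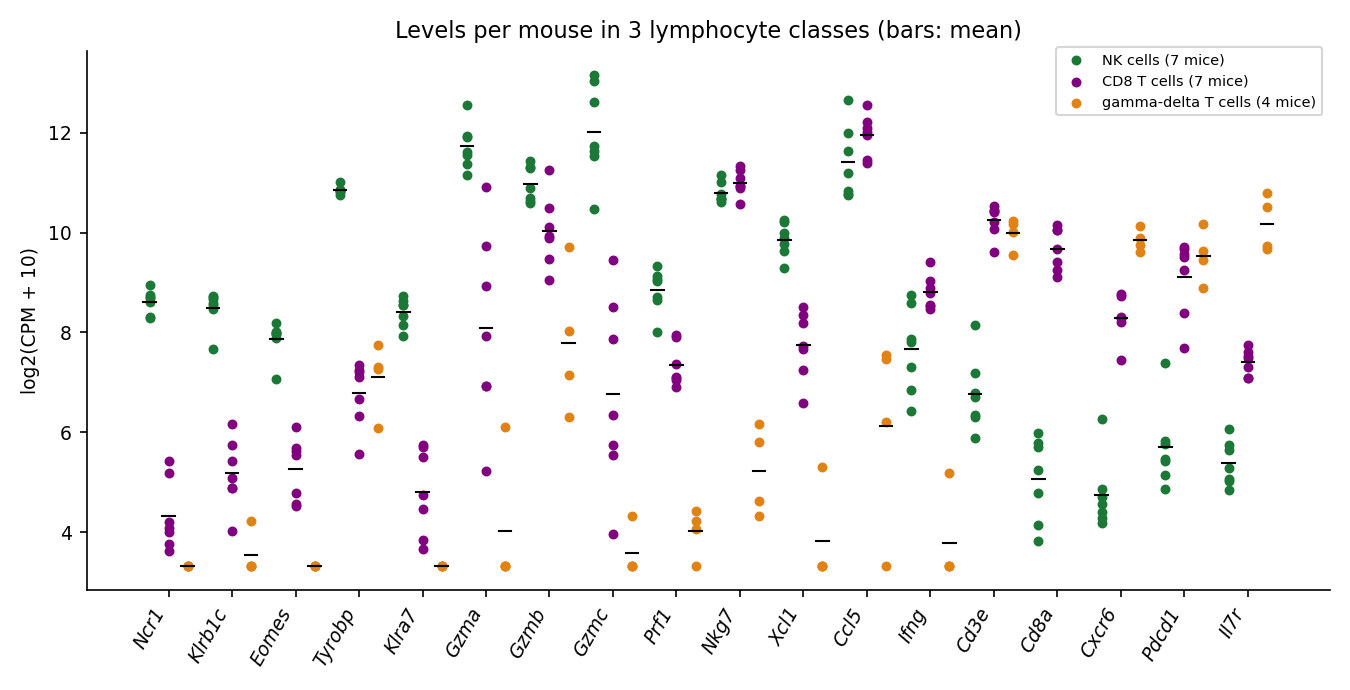
Levels as log2(CPM + 10) for 18 genes in NK cells (green, 7 mice), CD8 T cells (purple, 7 mice) and gamma-delta T cells (orange, 4 mice), 1 point per mouse with the class mean as a bar. Ncr1, Tyrobp and Klra7 separate NK cells from both T classes in every mouse, Nkg7 and Ccl5 overlap between NK and CD8 T cells, and Cd3e is lower in NK cells. Cd8a was not compared in gamma-delta T cells.

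The NK annotation was not uniform in its T cell genes. Of the 909 cells 657 held no UMI of Cd3d, Cd3e or Cd3g, 155 held 1 or 2, and 97 (10.7%) held 3 or more. The share with 3 or more was 8.18%, 8.88%, 5.50% and 13.6% in KO1 to KO4 and 7.84%, 28.3% and 8.70% in WT1 to WT3, so WT2 held the highest share. After thinning, Ncr1 was detected in 53.7% of cells without a CD3 UMI and 22.7% of those with 3 or more, Gzma in 70.0% and 15.5%, Eomes in 39.8% and 14.4%, and Tyrobp in 95.4% and 53.6%. Detected more often in the cells with 3 or more CD3 UMIs were the gamma chain variable gene Trgv2 (29.9% against 0.498%), Trac (23.7% against 2.65%), Ikzf2 (25.8% against 2.65%), Cd160 (38.1% against 15.1%) and Ly6c2 (59.8% against 14.9%). Not all receptor genes went this way: Trbc2 was detected in 39.2% against 17.4%, but Trbc1 in 22.7% against 21.9% and the delta chain gene Trdc in 4.12% against 7.96%. Klra7 (38.1% against 31.0%) and Gzmb (63.9% against 68.3%) were close in both. Cd8a, of the CD8 coreceptor, was detected after thinning in 18.6% of the cells with 3 or more CD3 UMIs and 1.49% of those without, and before thinning in 34.0% and 3.20%. Without thinning, Cd4 had a UMI in 5.15% of the 97 cells with 3 or more CD3 UMIs and 0.761% of those without, and Zbtb16, the factor of NKT cells, in 1.03% and 2.44%. After thinning, Cd4 was detected in 0% and 0.332% and Zbtb16 in 0% and 1.33%. A count of 0 among the 97 cells allows up to 3.09%. The 97 cells had a median of 7434 UMIs against 4776 in the cells without CD3, and the part of doublets was not tested. The split used CD3 counts of the same cells, so these shares are a description.

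The UMIs of Gzmc were concentrated in fewer NK cells than those of Gzma, Gzmb or the receptors examined. For each gene the 91 NK cells with its highest counts, 10% of the class, were taken. They held 31.9% of the Klrb1c UMIs, 37.2% of the Ncr1 UMIs and 33.6% of the UMIs of the adaptor Tyrobp. Of the Gzma UMIs they held 47.65%, of those of Gzmb 54.4%, of those of Prf1 59.2%, of those of Gzmc 82.8% and of those of Spp1 93.3%. Taken within each mouse, a check chosen after seeing the data, the top 10% of cells held 69.0% to 97.3% of the Gzmc UMIs, 39.7% to 64.6% of those of Gzma, 39.5% to 59.2% of those of Gzmb and 33.7% to 50.8% of those of Ncr1. Gzma was detected in 69.4% of NK cells, Gzmb in 79.4%, Gzmc in 42.2%, Gzmf in 7.92%, Gzmd in 6.05% and Gzmg in 2.31%. Per mouse Gzmc stood at 8744, 3306, 1438 and 3127 CPM in KO1 to KO4 and at 8193, 2956 and 6074 CPM in WT1 to WT3. Gzmf ran from 0 CPM in WT1 and 1.64 in KO3 to 1040.2 in KO2 and 4438 in WT3. Gzmg was at 2169 CPM in WT3 and at most 47.5 CPM in the other 6 mice. Spp1 stood at 569, 135, 40.9 and 229 CPM in KO1 to KO4 and at 598, 177 and 1427 in WT1 to WT3. For Gzmc and Spp1, high and low mice occurred in both genotypes.

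Cells in which Gzmc was detected differed from the other NK cells in several further genes. At 2000 UMIs Gzmc was detected in 327 of 849 cells, 43.8%, 44.3%, 18.7% and 43.9% in KO1 to KO4 and 25.0%, 26.0% and 42.2% in WT1 to WT3. The chemokine Ccl5 was detected in 16.8% of the Gzmc-positive and 73.0% of the Gzmc-negative cells, and its share was lower in the positive cells of all 7 mice. The same direction held in 7 of 7 mice for Klf2, a factor of circulating lymphocytes (25.4% against 60.7%), Eomes (29.7% against 39.8%) and Itga2 (1.53% against 7.66%), and in 6 of 7 for Gzma (48.6% against 70.9%). Thy1 (77.4% against 46.9%) and Gzmd (11.0% against 0.383%) were detected more often in Gzmc-positive cells of all 7 mice, and Itga1 (15.9% against 9.20%) in 6. For Gzmd the counting could split reads between related granzyme copies, and the part of this in its shares was not tested. Prf1 (43.4% against 37.6%), Gzmb (71.0% against 65.3%) and Ncr1 (47.4% against 51.2%) were within a few points of each other. The Gzmc-positive cells were deeper before thinning, with medians of 8153 and 4238 UMIs, and the part of RNA content in these differences was not tested. In every mouse Ccl5 and Klf2 were thus detected less often where Gzmc was detected.

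**Figure D3:**
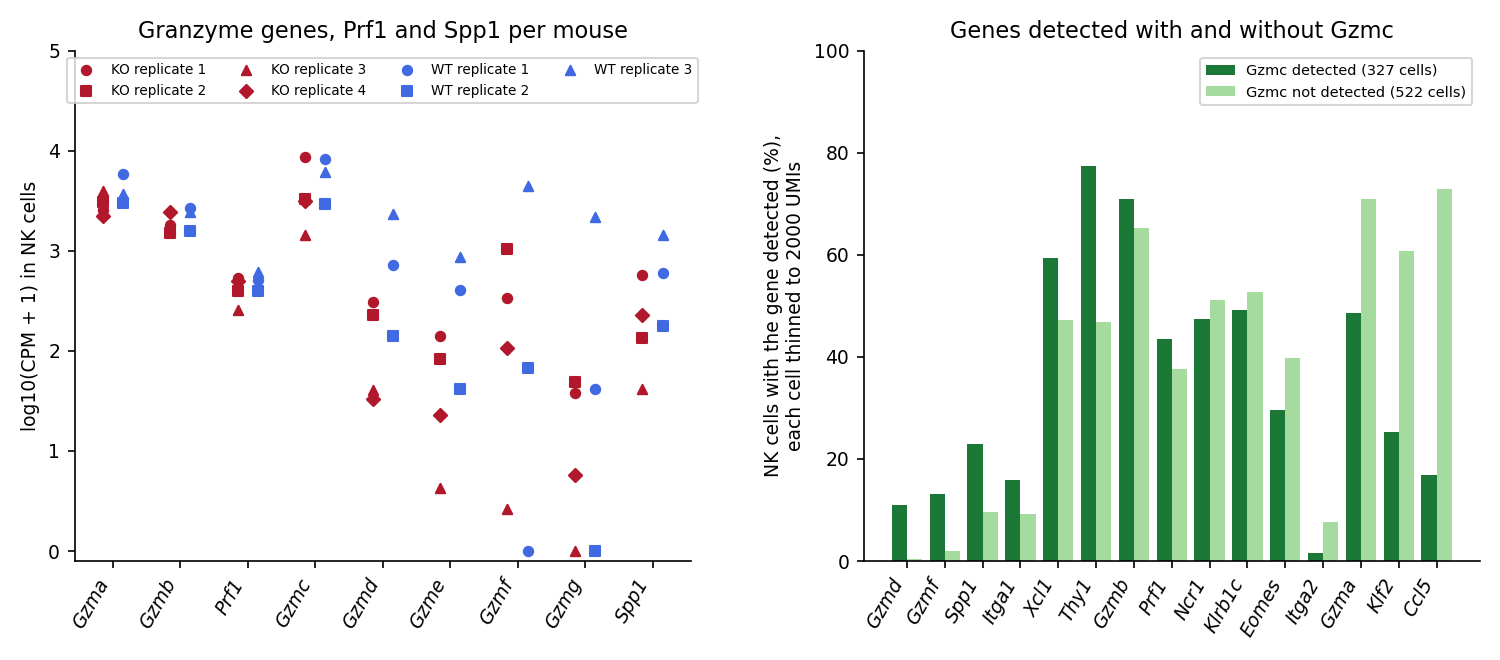
Left, log10(CPM + 1) of 7 granzyme genes, Prf1 and Spp1 in NK cells, 1 symbol per mouse (red KO, blue WT, the shape gives the replicate). Right, percent of NK cells with each gene detected among 327 cells with and 522 cells without Gzmc, each cell thinned to 2000 UMIs. Gzma, Gzmb and Prf1 lie close together across mice while Gzmd to Gzmg spread widely, and Ccl5 is detected in 73.0% of cells without and 16.8% of cells with Gzmc.

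The share of NK cells was then compared between genotypes, which addresses whether loss of Siglece in microglia goes with another lymphocyte makeup. NK cells were 7.80%, 4.88%, 2.30% and 4.01% of all sorted cells in KO1 to KO4 and 1.74%, 1.19% and 2.33% in WT1 to WT3. The lowest KO mouse lay just under the highest WT mouse, and the means of 4.75 ± 2.30% (SD, n = 4) and 1.75 ± 0.570% (n = 3) did not differ beyond that spread (exact two-sided permutation p = 0.0857 over 35 divisions, 0.279 after Benjamini-Hochberg adjustment over 13 shares). The binomial interval (95%, exact Clopper-Pearson) was 6.46% to 9.33% in KO1, the smallest library. The direction depended on the denominator. Of NK and CD8 T cells together, NK cells were 13.0 ± 9.32% in KO and 16.4 ± 10.7% in WT mice (exact permutation p = 0.571), while CD8 T cells were 38.9 ± 17.1% and 11.5 ± 7.31% of all cells without overlap (exact permutation p = 0.0571, adjusted 0.248). Cells without a CD3 or Trac UMI gave 3.24 ± 1.91% and 1.27 ± 0.571% of all cells (exact permutation p = 0.171).

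By the authors' cell cycle calls the S phase share of NK cells had a lower mean in the KO mice, a difference that did not pass the correction given here. The share was 27.3%, 23.2%, 22.0% and 25.1% in KO1 to KO4 and 35.3%, 41.5% and 31.5% in WT1 to WT3, so that the groups did not overlap. The means of 24.4 ± 2.31% and 36.1 ± 5.04% gave an exact two-sided permutation p of 0.0286, the smallest that 4 against 3 mice allow, and 0.186 after adjustment over the 13 shares, so the difference failed the correction. G1 calls mirrored it, at 71.7 ± 2.64% and 60.7 ± 2.13% (exact permutation p = 0.0286), and G2M calls were 3.87 ± 0.488% and 3.19 ± 3.95% (exact permutation p = 0.743). In CD8 T cells of the same mice S phase calls were 27.4 ± 6.75% and 27.7 ± 6.41% (exact permutation p = 0.886). The difference of the classes within each mouse, NK minus CD8, was -2.97 ± 5.19 points in KO and 8.42 ± 10.3 points in WT mice, with overlap (exact permutation p = 0.0857). In NK cells without a CD3 or Trac UMI the phase difference was of like size (23.9 ± 2.04% against 35.3 ± 5.28%). In NK cells of 3000 to 8000 UMIs the means were 18.9 ± 1.34% and 33.2 ± 10.7%, but the groups were barely separate. WT3 stood at 20.9% there, just above KO2 at 20.4%, while WT1 and WT2 stood at 38.7% or more. Each check gave an exact permutation p of 0.0286, again the smallest possible, and both were chosen after seeing the data. Phase calls are computed from expression, and the part of free RNA in them was not tested. Mki67, the proliferation antigen, was at 40.6 ± 5.98 CPM in KO and 47.8 ± 28.8 in WT mice.

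**Figure D4:**
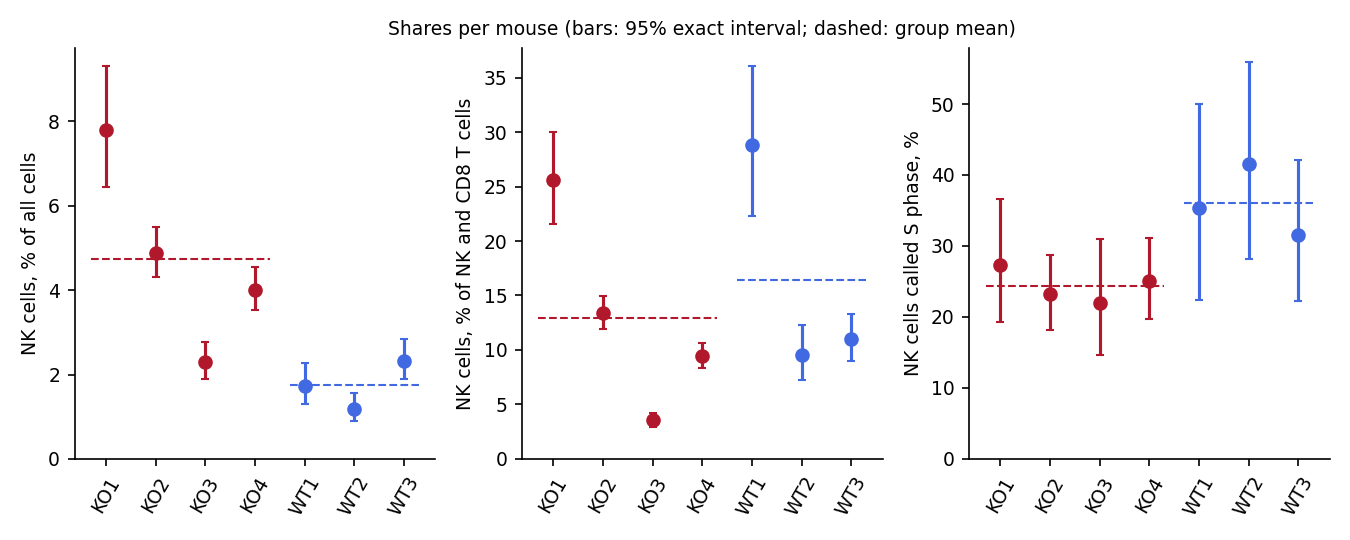
NK cells as a percent of all cells (left) and of NK and CD8 T cells (middle), and NK cells called S phase (right), 1 point per mouse with its 95% exact binomial interval and the group mean as a dashed line (red KO, blue WT). The KO mean is above WT on the left and below it in the middle, and in the right panel the 4 KO mice lie between 22.0% and 27.3% and the 3 WT mice between 31.5% and 41.5%.

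Gene levels in NK cells were tested between the genotypes on UMI sums per mouse with edgeR's quasi-likelihood test. The libraries of 1 mouse each are the replicates. Of 7068 genes 1 was called at an adjusted p under 0.05 (0.0141%), and 289 (4.09%) had an unadjusted p under 0.05. This was Basp1, a membrane-bound signalling protein and transcriptional corepressor (chromosome 15, 25363277 to 25413764), which was lower in KO: 11.7, 10.1, 6.55 and 8.72 CPM in KO1 to KO4 and 40.6, 20.1 and 76.8 CPM in WT1 to WT3. Those levels rest on 4 to 15 UMIs in the KO mice and 6 to 51 in the WT mice. Its log2 fold change was -2.40 ± 0.37 (SE, edgeR adjusted p = 0.0276), and the call ended when any 1 of KO2, KO3, KO4, WT1 or WT3 was left out (adjusted p 0.0528 to 0.840, the latter without WT3, at a log2 fold change of -1.62). In the CD8 T cells of the same mice its log2 fold change was -0.86 ± 0.45 (edgeR adjusted p = 1.0), and the difference between the classes was not called (edgeR adjusted p = 0.875).

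The genotypes did not overlap for 458 of the 7068 genes (6.48%), 247 with KO above (3.49%) and 211 with KO below (2.99%). Among genes with at least 50 CPM, the 8 with the smallest p above were Cox7a2l, Cirbp, Rbm3, Mef2a, Ccr2, Baz2a, Styk1 and Itm2c, and those below included Ly6c2, Ifi27l2a, Tmem176b, Bst2, Lmnb1, Hsp90b1 and Rnaseh2c. None of these 15 passed the adjustment, and their edgeR adjusted p ran from 0.241 to 1.0. Without the filter on low counts, Cox7a2l (edgeR adjusted p = 0.0169), Cirbp (0.00642), Rbm3 (0.00476) and Tmem176b (0.00934) were called, as were Ly6c2 and Ifi27l2a. Their levels are given as values of these mice.

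On the side with KO above, Cirbp and Rbm3 encode the related cold-inducible RNA-binding proteins. Rbm3 was at 1749, 1202, 1293 and 1033 CPM in KO1 to KO4 and at 509.5, 944 and 826 CPM in WT1 to WT3 (log2 fold change 0.78 ± 0.22, SE). Cirbp was at 158, 235, 242 and 113 CPM and at 84.9, 110.5 and 88.9 CPM (0.96 ± 0.26). Both stood higher in KO in the CD8 T cells as well, with log2 fold changes of 0.70 ± 0.24 and 1.09 ± 0.30 (edgeR adjusted p = 0.888). The classes come from the same libraries, so this is no independent support. Cox7a2l, an assembly factor of respiratory supercomplexes, was at 253 ± 39.8 CPM in KO and 139.9 ± 38.9 in WT mice. Ccr2, the receptor by which monocytes and some lymphocytes enter inflamed tissue, was at 230.3 ± 30.5 and 151 ± 21.2 CPM in NK cells, and its log2 fold change in CD8 T cells was -0.18 ± 0.62.

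On the side with KO below, Ly6c2, a surface antigen of activated T cells, monocytes and some mature NK cells, was at 189, 348, 177 and 297 CPM in KO1 to KO4 and at 642, 613 and 482 CPM in WT1 to WT3. Its log2 fold change was -1.20 ± 0.23 (edgeR adjusted p = 0.241), and -0.86 without the cells that held a CD3 or Trac UMI (adjusted p = 0.312). Ly6c2 was at 1471 CPM in the NK cells with 3 or more CD3 UMIs and 163 CPM in those with none. The share of the former was 8.18%, 8.88%, 5.50% and 13.6% in KO1 to KO4 and 7.84%, 28.3% and 8.70% in WT1 to WT3. The part of these cells in the difference between the genotypes was not tested beyond the removal of cells with a CD3 or Trac UMI. The interferon-induced Ifi27l2a was at 24.2, 56.2, 50.7 and 77.1 CPM in KO mice and at 151, 141 and 149 CPM in WT mice (log2 fold change -1.50 ± 0.29, edgeR adjusted p = 0.278). Both were called with DESeq2 (adjusted p = 0.00611 each), and by edgeR in G1 cells (adjusted p = 0.0186 for Ly6c2 and 0.0134 for Ifi27l2a), with the replicate block (0.0398 and 0.00443) and without a filter (7.82e-05 and 5.39e-07). Ifi27l2a was also called without KO1 (edgeR adjusted p = 0.0213) or without KO4 (0.00619). Under the other alternatives the edgeR adjusted p ran from 0.0531 to 0.994 for Ly6c2 and from 0.163 to 0.994 for Ifi27l2a. Bst2 (tetherin), also induced by interferon, was at 139 ± 35.8 and 221 ± 11.1 CPM, and in CD8 T cells its log2 fold change was -0.91 ± 0.21 against -0.68 ± 0.20 in NK cells.

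**Figure D5:**
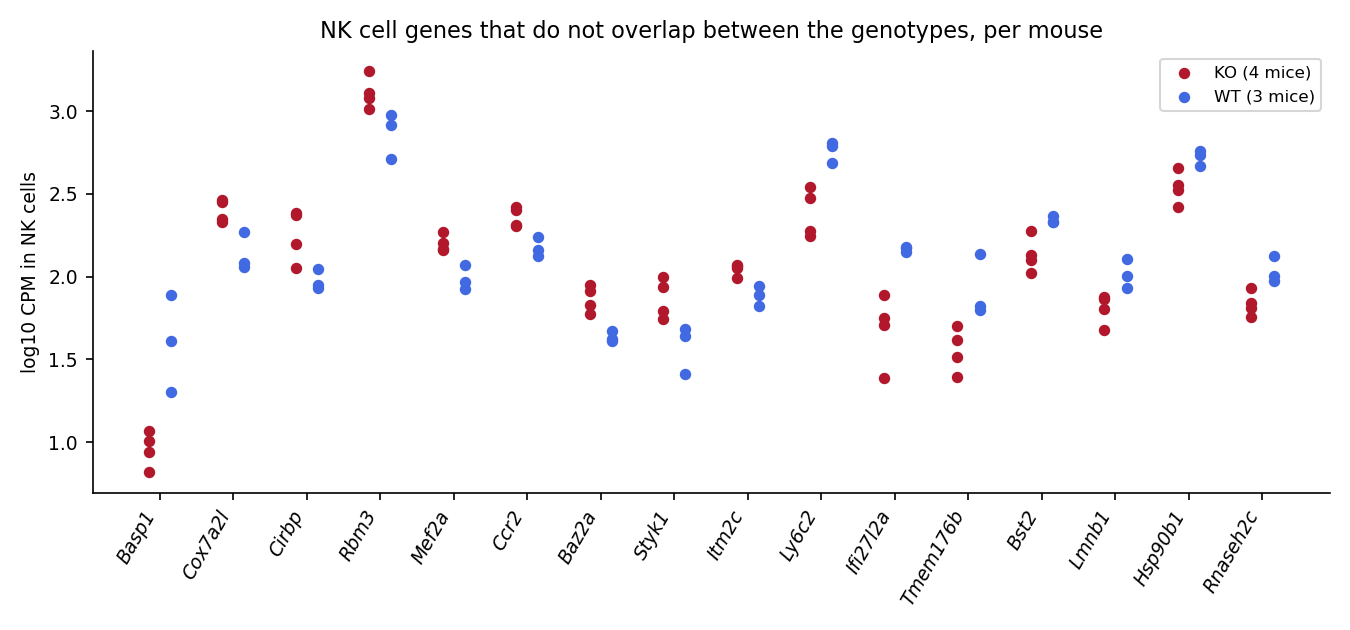
Levels in NK cells as log10 CPM, 1 point per mouse (red, 4 KO mice; blue, 3 WT mice), for Basp1 and 15 of the genes with the smallest p among those of at least 50 CPM whose groups do not overlap. Basp1 alone passed the adjustment, and the groups were chosen not to overlap, so their separation is not a finding.

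The marker genes did not separate the genotypes beyond the spread of the mice. Ncr1 was at 296, 374, 432 and 396 CPM in KO1 to KO4 and at 473, 408 and 292 CPM in WT1 to WT3 (log2 fold change -0.07 ± 0.20, SE). Klrb1c was at 392, 386, 350.2 and 405 CPM and at 358, 194 and 363 CPM (0.30 ± 0.21). Gzma was at 2534, 3062, 3983 and 2229 CPM and at 5900.4, 3020.1 and 3733 CPM (-0.54 ± 0.26), and Prf1 at 530.0, 397, 254 and 502 CPM and at 513, 392 and 613 CPM (-0.28 ± 0.24). All 4 ranges overlapped, and each edgeR adjusted p was 1.0.

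No list held a called gene, so the lists are given by their signs beside those of all genes tested (3422 positive and 3646 negative log2 fold changes, KO over WT, median -0.01). NK identity genes were split 6 to 6 (median 0.03), activating receptors 12 to 12 (0.04), and inhibitory receptors 9 to 9 (-0.01). ILC1 and residency genes were split 10 to 10 (0.03, and from -0.16 without KO4 to 0.20 without WT2), but 7 of the 20 had an unadjusted p under 0.05 (4.09% of all genes) and 4 lay lower in KO without overlap (2.99% of all genes). Those 4 were Il7r at 18.0, 23.0, 22.9 and 28.2 CPM in KO1 to KO4 and 55.4, 40.2 and 42.2 CPM in WT1 to WT3, Rora, Tmem176a and Tmem176b. The other 3 of the 7 overlapped between the genotypes: Cxcr6 had a lower mean in KO, and Tcf7 and Rgs1 a higher one. Cytotoxic genes had 5 positive and 12 negative values (-0.13, and from -0.34 without WT2 to -0.09 without WT3), with Gzmc at 4154 ± 3174 CPM in KO and 5741 ± 2634 in WT mice. Secreted cytokines and chemokines had 1 positive and 8 negative (-0.54, and -0.24 without WT1 or -0.35 without KO3), among them Ccl3 at 48.1 ± 45.5 and 147 ± 63.2 CPM and Ifng at 176 ± 142 and 281 ± 112 CPM. Proliferation genes had 3 positive and 18 negative (-0.43, but -0.23 without WT2, -0.27 without WT3 and 4 to 4 with a median of 0.00 in G1 cells), for example Mcm5 at 46.6 ± 15.4 and 66.8 ± 23.9 CPM. The interferon response list had 4 positive and 25 negative (-0.23, and -0.11, -0.14 or -0.40 without KO1, KO2 or KO4). Among markers of other cell types, monocyte and macrophage markers had 1 positive and 9 negative (-0.43, and -0.20, -0.90 or -0.19 without KO1, KO2 or WT1), T cell markers 3 and 10 (-0.19, and from -0.41 to -0.03 when 1 mouse was left out, the latter without WT2) and gamma-delta T cell markers 0 and 4 (-0.32, and from -0.59 to -0.16, the latter without WT1). Their part in the lists above was not tested. CD8 T cell markers had 0 positive and 7 negative (-0.56). Without WT2, the mouse with the highest share of NK cells holding 3 or more CD3 UMIs, they had 1 and 6 (-0.04), and the median was -0.24 without KO1 and -0.90 without WT1. Their summed level ran from 375 to 605 CPM in KO and from 450.5 to 1118 CPM in WT mice. Basp1 was still the 1 gene called after cells with a CD3 or Trac UMI were removed. Maturation and egress genes had 1 positive and 16 negative (-0.18) and transcription factors 5 and 20 (-0.22), but without WT1, the library with few ribosomal UMIs, they were 9 and 9 (0.01) and 13 and 13 (-0.01). Leaving out another mouse gave medians from -0.50 (without WT3) to -0.13 (without KO1) for the maturation genes, with -0.45 without KO3 and -0.32 without WT2, and from -0.42 (without WT3) to -0.15 (without KO1) for the transcription factors, with -0.33 without KO3.

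Last, NK cells and CD8 T cells were fitted together to ask whether the genotype difference itself differed between the classes. Of 10047 genes 2 were called (0.0199%, with 488 at an unadjusted p under 0.05), and both are antigen receptor segments. Trbv13-2, a T cell receptor beta variable gene, had 1, 10, 0 and 5 UMIs in NK cells of KO1 to KO4 and 3, 18 and 17 in WT1 to WT3, where they sat in 2, 3 and 2 cells. In CD8 T cells it had 147, 2118, 485 and 1059 UMIs and then 69, 241 and 237. A UMI was thus held by 7 NK cells of the WT mice, so the difference rests on few cells. The genotype difference was lower in NK cells by 3.99 ± 0.47 on the log2 scale (edgeR adjusted p = 0.000475). Igkv6-17, an antibody light chain segment, had 54 UMIs in the NK cells of KO4 and 39 in those of WT2 and none in the other 5 mice. In CD8 T cells it had 4126 in KO4, 308 in WT2, 2 in KO3 and none elsewhere. In KO4 these sat in 46 of 235 NK cells and 338 of 2258 CD8 T cells. In WT2 they sat in 24 of 53 NK cells and 210 of 502 CD8 T cells. The difference of Igkv6-17, -3.07 ± 0.38 (edgeR adjusted p = 0.00112), rests on KO4 and WT2. Without KO4 it was not testable, and without WT2 its edgeR adjusted p was 1.0. With 1 such mouse per genotype, the p of 0.00112 does not measure the spread between mice for this gene. In CD8 T cells alone 0 of 11867 genes were called by edgeR (586 at an unadjusted p under 0.05, and 13 by DESeq2). Gamma-delta T cells were not fitted against genotype, since KO1 alone among the KO mice had 20 of them or more.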

How the data were processed

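Single-cell RNA was measured in 7 libraries, 1 per mouse (4 KO, 3 WT), with a 10x Genomics 5′ kit, per the labels' protocols. The authors deposited UMIs per gene and cell (55491 genes) whose values are expected counts (estimated counts). Of the NK UMIs, 11.6% sit in values that are not whole, and how those arose is not given in the sources used here. STAR 2.7.10a, STARsolo, FastQC 0.11.5 and the build mm10 are named in the submitters' processing notes; the gene annotation, cell filters and doublet handling are not given in the sources used here. The deposited cell table also holds the annotation (23 names), phase, the count of genes detected, the percent of mitochondrial and ribosomal UMIs and t-SNE scores, which were not used. All 28644 deposited cells were kept and no doublet caller was run, so doublets may remain.

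UMIs were summed per mouse and class, rounded to whole numbers and tested with edgeR 4.0.16 (quasi-likelihood, TMM scaling, filterByExpr, robust; limma 3.58.1, R 4.3.3), with Benjamini-Hochberg adjustment over all genes tested and calls at 0.05. The fit used the mice of both genotypes with no covariate; the NK and CD8 T cell fit had mouse, class and the interaction of class with genotype. Differences between classes are log2(TMM-scaled CPM + 10) within a mouse with at least 20 cells of both classes, called past 2-fold in every mouse. Shares were compared by the exact permutation test over the 35 divisions of the mice. CPM elsewhere are UMIs per 1000000 UMIs of the class in that library, and intervals and limits from a count of 0 (3 UMIs or cells) cover counting error only. The scripts were tested on simulated data.

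Named genes were Ncr1, Klrb1c, Gzma and Prf1; genes called between genotypes or in the interaction; the 8 genes per direction with the smallest p among those of at least 50 CPM whose groups did not overlap; the 10 per direction with the largest difference from each T cell class at 50 CPM or more; and members of 24 gene lists. A few of these genes are not reported here. A few genes in the accounts of CD3-positive and Gzmc-positive cells were chosen after their values were seen. The cell class, the lists and the rules were chosen with earlier results of these data known. Coordinates are from GENCODE M21 (GRCm38), which holds 95.8% of the gene names (96.6% with older symbols from RefSeq), and sequences from RefSeq (GRCm38.p6). p-values measure the spread between mice. Alternatives were DESeq2 1.42.0, other scaling, no filter, a replicate block, a sex term, equal cells, G1 cells, cells without CD3 or Trac UMIs, whole-valued genes, and leaving out each mouse. Replicate numbers did not pair the mice.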

Additional observations from a re-analysis of the deposited data

Results flagged for a closer look

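For 88 named genes the KO mice were checked for a mouse far from the other 3, which chance gives in about 1 of 20 groups, and 8 genes had one. KO3 stood apart for 4 of them: the chemokines Ccl5 (4165 CPM, against 1642, 1771 and 1716 in KO1, KO2 and KO4) and Ccl4 (531.9 CPM, against 48.5, 117 and 67.1), and the activating receptors Klrk1 (628.4 CPM, against 459, 471 and 475) and Klrc2 (191.5 CPM, against 96.1, 87.1 and 95.2). KO3 also had the lowest share of NK cells with Gzmc detected (18.7%) and the lowest Gzmc level (1438 CPM).

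The inhibitory receptor Klra7 was low in KO2 at 267.8 CPM, against 372, 373 and 357 in the other KO mice. Cd8b1 was low in KO1 at 2.345 CPM, against 20.2, 18.0 and 20.1. Among the KO mice, Actn2 was detected in KO2 alone (2.88 CPM, 0 in the other 3), and Igkv6-17 in KO4 alone (36.21 CPM, 0 in the other 3). With 0 in the other 3 mice any count passes this check, so the rate of 1 of 20 does not apply to these genes. Igkv6-17 was also present in the NK cells of WT2 (39 UMIs).

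The genotype difference differed between NK cells and CD8 T cells by the interaction test for Trbv13-2 (-3.991 on the log2 scale) and Igkv6-17 (-3.069 on the log2 scale), the latter resting on KO4 and WT2.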

How the results depend on the processing

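Between genotypes edgeR called 1 gene in NK cells. The count was 4 with DESeq2, 27 without a filter, 0 with equal cells per mouse and 3 in G1 cells, and 0 to 3 when 1 mouse was left out (0 without KO2 or without KO3, 2 without KO1, 3 without KO4). Replicate numbers did not pair the mice (correlations of same-numbered deviations -0.207, 0.00857 and -0.31), and with the replicate block 6 genes were called, Basp1 not among them (-2.11, edgeR adjusted p = 0.131). Of 271 values of single genes under these alternatives 251 kept their direction and side of the threshold, 14 passed it newly and 6 no longer passed. All 6 were values of Basp1, the only one of these genes called at first. The other genes had no call to lose, so the 251 do not measure how stable a call is. The interaction with CD8 T cells called 38 genes without a filter and 1 to 9 when 1 mouse was left out (9 without WT3, 4 without KO3, 1 without KO4). The NK share was higher in KO by 2.99 percentage points of all cells but -3.47 points of NK and CD8 T cells (exact permutation p = 0.571), a denominator chosen after seeing the data; the cause was not tested. It was 1.23 points of lymphoid cells (exact permutation p = 0.771) and 0.172 points of NK and T cells (0.943), and ran from 1.98 (without KO1) to 3.81 points of all cells when 1 mouse was left out. The S phase difference ran from -14.0 to -9.02 points when 1 mouse was left out, where 0.0667 or 0.1 is the smallest exact p. Over 4-fold, 16 genes were higher and 15 lower than in CD8 T cells, and 66 and 71 than in gamma-delta T cells; a pseudocount of 1 gave 101 and 129 against CD8 T cells, and all 7 mice with at least 10 gamma-delta T cells gave 90 and 84. Small NK sums (270957 UMIs in WT1) and few gamma-delta T cells limit what could be detected.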
